A study of Mus musculus with 12 samples.

Results

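Loss of Dscr-1 alone was followed in liver on 4 of the 12 arrays of the series, chosen by sample title: 2 arrays of mice labelled Dscr-1 null and 2 of wild-type (WT) mice. Each array held liver RNA of 1 adult C57BL/6J mouse. WT mice carried no null allele, Dscr-1 null mice lacked Dscr-1, and the 4 other liver arrays, used for comparison, came from 2 ApoE null mice and 2 double null mice lacking both genes. The labels give HFD for 12 weeks for every liver mouse, whereas the study's text describes normal chow for the liver arrays, so the diet behind these values is not settled. According to the methods, WT C57BL/6J mice were purchased and both null lines were kept on that background, and littermates were used for the HFD experiments. The sources do not say which of these descriptions applies to the mice on the arrays.

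Dscr-1, the product of Rcan1, binds the phosphatase calcineurin and holds back its activity. Active calcineurin dephosphorylates NFAT factors, which then enter the nucleus and switch on genes of inflammation and growth, Rcan1 among them. In liver, glucose output in fasting is driven through cAMP, the coactivators Crtc2 and Ppargc1a and the factor Foxo1, all acting on enzyme genes such as Pck1 and G6pc, and insulin opposes it. Prostaglandins signal through their own cAMP- or calcium-linked receptors, and unfolded protein, amino acid shortage and oxidants each call up a distinct set of stress genes.

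The 4 arrays resembled each other about as much between the groups as within them. Pearson correlations over all tested probe sets, which are no independent replicates, were 0.891 within WT, 0.889 within Dscr-1 null and 0.880 to 0.897 between the groups. The ratio of 3' to 5' signal of the Actb controls, which rises as RNA degrades, was 3.15 and 5.50 in WT and 5.19 and 4.75 in Dscr-1 null livers. ApoE null replicate 1 had a mean correlation of 0.835 with the other liver arrays, against 0.873 to 0.883 for the rest. The part of RNA quality in the differences below was not tested. Hepatocyte transcripts dominated every array, and Alb, the albumin gene, had MAS5 signals of 27526.8 and 36918.1 in WT and of 34806.2 and 35103.4 in Dscr-1 null livers. The signal is the intensity of a probe set after each array was brought to a mean of 100, and levels of different genes are not compared with each other. Apoe, the apolipoprotein deleted in the other mutant line, was at 20045.3 and 19962.9 in WT and 21510.3 and 19937.4 in Dscr-1 null livers. The genotype at Dscr-1 could not be read from the arrays. The brighter Rcan1 probe set gave 210.0 and 133.7 in WT and 255.2 and 353.1 in Dscr-1 null livers, and the dimmer one gave 19.6 and 46.9 against 7.5 and 5.1. The position of either probe set with respect to the deleted segment was not found in the sources, so every direction below rests on the sample labels. The purine salvage gene Hprt separated the 2 arrays labelled Dscr-1 null from each other, with 819.7 on replicate 1 and 65.9 on replicate 2. WT livers had 46.9 and 54.8, and livers lacking ApoE, with or without Dscr-1, had 884.2 to 1018.7. The low Hprt level was thus shared by both WT arrays and Dscr-1 null replicate 2. The methods also describe mouse lines with constructs targeted to the Hprt locus. The sources do not say whether any mouse on these arrays carried one, and whether the 2 Dscr-1 null mice share 1 genotype at Hprt was not tested.

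Genotypes were compared on log2(signal + 16) with a limma model of all 8 liver arrays and 1 mean per genotype. Of 14855 genes tested, each read from its brightest probe set, 1 passed an adjusted p of 0.05 (0.00673%). That gene was Ang. At an unadjusted p under 0.05 there were 570 genes (3.84%), 288 higher (1.94%) and 282 lower (1.9%) in Dscr-1 null livers. Both Dscr-1 null arrays lay above both WT arrays for 2415 genes (16.3%) and below them for 2508 (16.9%). A difference of more than 2-fold with no overlap was found for 513 genes upward (3.45%) and 509 downward (3.43%). Most of these were dim. Among the 6632 genes in which one group had a mean signal over 100, 75 were more than 2-fold higher (1.13%) and 44 more than 2-fold lower (0.663%), without overlap. The median log2 difference of all genes was -0.01. With 2 mice per genotype, p-values measure only the spread between these mice, and the number of arrays limits the precision.

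**Figure D1:**
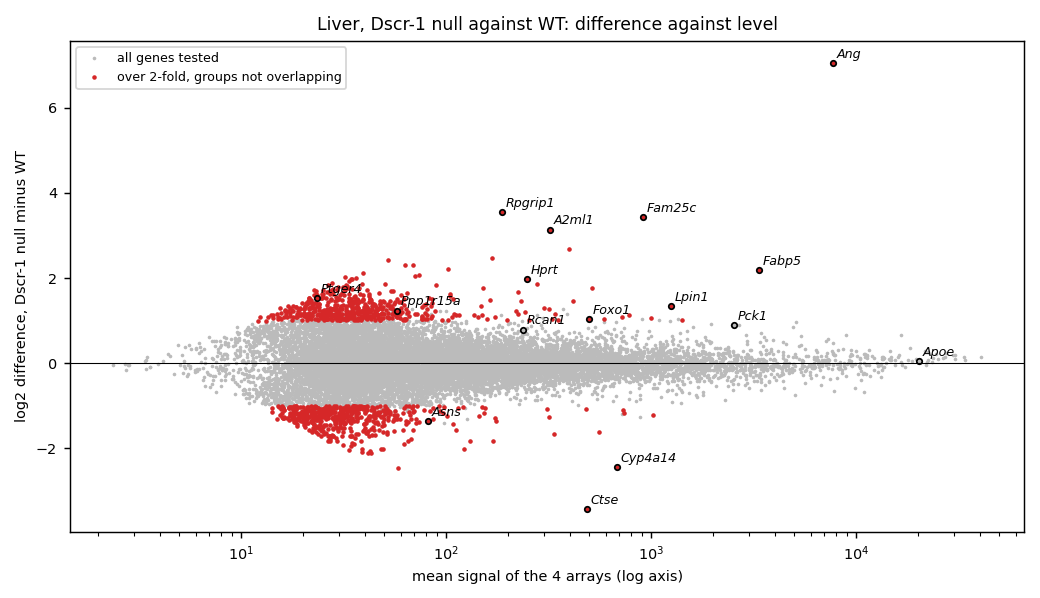
Dscr-1 null minus WT liver as a log2 difference (vertical axis, log2 of signal plus 16) against the mean signal of the 4 arrays (log axis) for 14855 genes, with the 1022 genes over 2-fold and without overlap in red and named genes circled. Ang stands alone at 7.05, and most red points lie left of a signal of 100.

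Ang encodes angiogenin, a secreted ribonuclease that promotes vessel growth, and was the single gene past the adjusted threshold. It was higher in Dscr-1 null livers. Its signal was 82.7 and 93.3 in WT livers and 8448.9 and 22375.2 in Dscr-1 null livers. The log2 difference was 7.05 (95% confidence interval 5.89 to 8.21, adjusted p = 0.0245 from limma). Both WT arrays lay below all 6 other liver arrays, and the 4 livers that lacked ApoE ranged from 14582.4 to 22270.3. The 3 Ang probe sets did not behave alike. A further one gave 394.2 and 347.0 in WT and 1773.8 and 5268.1 in Dscr-1 null livers (2.99), while the last gave 1067.1 and 815.8 against 542.2 and 1315.6 (-0.14). Averaged over its probe sets the log2 difference was 3.30 and did not pass (adjusted p = 0.412 from limma), and over all alternatives the adjusted p ran from 6.61e-10 to 0.694. The call was lost without any of 7 single arrays, at an adjusted p from limma of 0.624 without WT replicate 1, 0.546 without WT replicate 2, 0.117 without Dscr-1 null replicate 2, 0.168 without either ApoE null array and 0.120 without either double null array. It held without Dscr-1 null replicate 1 (adjusted p = 0.0310 from limma).

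Ang shares its promoter with Rnase4, another ribonuclease of the same family, and alternative splicing joins the common leader to one coding exon or the other. The RefSeq table lists a single 300-base window for both genes, from 250 bases before to 50 after the start site (chr14:51090827-51091126, GRCm38.p6, plus strand). It is printed because the genes fed by this promoter differed in their behaviour, with GC boxes (GGGCGG on either strand) in capitals.
Ang and Rnase4: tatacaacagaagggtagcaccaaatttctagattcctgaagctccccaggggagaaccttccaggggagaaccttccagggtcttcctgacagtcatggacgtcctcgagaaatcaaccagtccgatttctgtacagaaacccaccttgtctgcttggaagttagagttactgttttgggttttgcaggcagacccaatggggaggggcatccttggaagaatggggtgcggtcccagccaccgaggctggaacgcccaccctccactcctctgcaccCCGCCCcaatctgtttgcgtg
The window held 1 GC box and no match to TATAAA. GC boxes occurred in 55.4% of the 15110 windows of tested genes. Rnase4 had a signal of 12359.4 and 11506.1 in WT and of 7790.5 and 10695.5 in Dscr-1 null livers (log2 difference -0.38, 95% confidence interval -1.21 to 0.44). It was therefore high on all 4 arrays and slightly lower on both Dscr-1 null arrays, whereas the brightest Ang probe set was higher on both.

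Other genes near Ang on chromosome 14 were examined by their order in RefSeq. Of the 50 genes on either side, 20 were tested. Both Dscr-1 null arrays lay above both WT arrays for 3 of them and below for 7, against 16.3% and 16.9% of all genes. Pnp, a purine nucleoside phosphorylase, was at 1817.2 and 1853.1 in WT and at 978.6 and 935.6 in Dscr-1 null livers (log2 difference -0.93, adjusted p = 0.982 from limma). Apex1, a DNA repair endonuclease, was at 667.4 and 698.5 against 425.0 and 390.8 (-0.72). By these probe sets the WT arrays lay above all 6 other liver arrays for both genes. The 2 other Apex1 probe sets gave -0.36 and -0.13, and on neither did both WT arrays lie above all others. Rpgrip1, a protein of the photoreceptor cilium 49 genes away from Ang, had the second largest upward difference in the data. Its signals were 29.7 and 4.6 in WT and 263.1 and 448.2 in Dscr-1 null livers (3.55), although its other probe set gave -0.77. Of 40 tested neighbours of Rcan1 on chromosome 16, 21 were higher (median log2 difference 0.04). Both Dscr-1 null arrays lay above both WT arrays for 6 of these 40 and below for 9, against 16.3% and 16.9% of all genes. At an unadjusted p under 0.05 by limma there were 0 of the 40, against 3.84% of all genes. By chromosome, the share of genes at that threshold ran from 2.45% on chromosome 8 to 5.11% on chromosome 6.

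Several other genes went from a low WT signal to a clearly higher one, none past the adjusted threshold. Fam25c was at 87.3 and 221.5 in WT and 1796.8 and 1545.0 in Dscr-1 null livers, a log2 difference of 3.42. A2ml1, of the alpha-2-macroglobulin family of protease inhibitors, was at 34.5 and 73.5 against 460.9 and 717.5 (3.14). Fabp5, a cytosolic fatty acid carrier, was at 1260.5 and 1059.5 against 7356.7 and 3825.7 (2.18). In all 3 genes both WT arrays lay below all 6 other liver arrays. The same order of arrays held for Trim34a and Trim30d, of the interferon-induced tripartite motif family, which lie 14 genes apart on chromosome 7. Trim34a was at 7.8 and 3.4 in WT and at 96.6 and 101.6 in Dscr-1 null livers (2.42), while a probe set too dim to be tested was at 4.1 and 8.0 against 1.7 and 2.3. Trim30d was at 18.2 and 4.2 against 117.4 and 111.0 (2.31). Hgf, the hepatocyte growth factor gene, was at 12.3 and 9.9 against 174.5 and 78.3 (2.31), with another probe set at -0.36. In the same order, Bcl7c, a subunit of a chromatin remodelling complex, was at 41.0 and 13.5 against 156.8 and 195.3 (2.22), and its 3 other probe sets gave -0.33 to 0.80. Nat8f5, of an acetyltransferase family, had a log2 difference of 2.46. Over all genes, both WT arrays were below the 6 other liver arrays for 629 genes (4.23%) and above them for 563 (3.79%). In a few genes both Dscr-1 null arrays lay above every other liver array. Fam214a was at 791.3 and 805.3 in Dscr-1 null livers, at 189.3 and 267.9 in WT and at 351.1 to 447.1 in livers lacking ApoE. Its WT arrays were thus also below all 6 others. Zfp385a, a zinc finger gene, was at 135.7 and 108.0 and at 6.8 to 44.4 elsewhere. Both Dscr-1 null arrays were above all 6 others for 339 genes (2.28%) and below them for 479 (3.22%).

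Downward differences were led by Ctse, the gene of the aspartic protease cathepsin E. It had signals of 744.8 and 1070.1 in WT and of 86.6 and 53 in Dscr-1 null livers (log2 difference -3.43, adjusted p = 0.842 from limma). By this brighter probe set the 6 arrays without WT had 15.9 to 86.6, so the WT livers again stood apart. A dimmer Ctse probe set gave -1.69, at 55.2 and 52.1 against 5.6 and 5.5. By the dimmer one the WT livers did not stand apart, since livers lacking ApoE ranged from 46.7 to 121.4. Clec2d, a ligand of natural killer cell receptors 26 genes from A2ml1 on chromosome 6, was at 457.5 and 567.2 in WT and at 202.2 and 111.5 in Dscr-1 null livers (-1.66). Rarb, the retinoic acid receptor beta, was at 143.2 and 77.2 against 7.0 and 5.4 (-2.46). Acot3, a peroxisomal acyl-CoA thioesterase, was at 148.3 and 76.4 against 18.7 and 18.5 (-1.83). Id2 and Shh followed another order, being low in Dscr-1 null livers alone. Id2, an inhibitor of helix-loop-helix factors, was at 380.9 and 178.6 in Dscr-1 null livers and at 610.1 to 1071.7 on the 6 other arrays. Shh, a hedgehog ligand, was at 53.5 and 39.4 and at 104.4 to 234.7 elsewhere. Further genes below WT included Nudt18, a nucleotide hydrolase (-1.82), Stpg1 (-1.89, with 0.17 by another probe set), Rcor3, a corepressor (-1.17, with -0.35 to 1.19 by 4 other probe sets), and Rpap3, a cochaperone (-1.58). Dim genes with a low p were Sprr2k at -2.02, the cilium factor Rfx3 at -2.02, the small GTPase Rac3 at -1.91 and Klhl40 at -1.72. Their Dscr-1 null signals of 2.3 to 9.2 lay under the array medians of 32.6 and 35.4, so the sizes are not read.

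**Figure D2:**
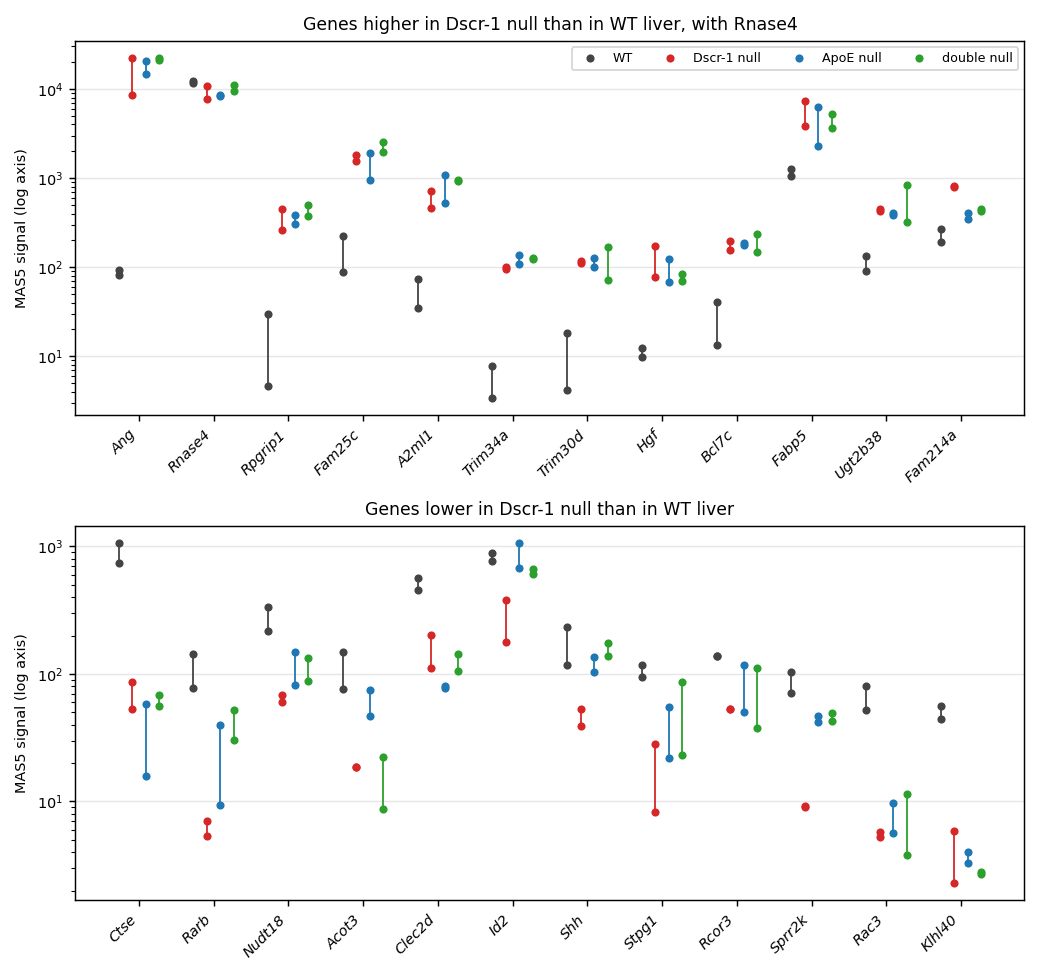
MAS5 signal (log axis) of leading genes on the 8 liver arrays, with 1 dot per mouse and a line joining the 2 mice of a genotype. Ang ranges from 82.7 to 93.3 in WT and from 8448.9 to 22375.2 elsewhere while Rnase4 stays between 7790.5 and 12359.4, and Id2 is lowest in Dscr-1 null livers.

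In the gluconeogenesis list, which also held the glycolytic enzyme Pfkl, no gene passed the adjusted threshold. Of 25 measured members 16 were higher (48.8% of all genes were), both arrays were above both WT arrays for 4 (16.3% of all genes were) and below for 1 (16.9% of all genes), and the median log2 difference was 0.06. Foxo1, the factor that insulin excludes from the nucleus, was at 295.1 and 349.4 in WT and at 668.5 and 678.4 in Dscr-1 null livers (log2 difference 1.03, 95% confidence interval 0.20 to 1.86, adjusted p = 0.952 from limma). Both Dscr-1 null arrays lay above all 6 other liver arrays. Both WT arrays also lay below all 6 others, since livers lacking ApoE had 416.5 to 602.7. The 2 other Foxo1 probe sets gave 0.17 and 0.10. Ppargc1a, a coactivator of fasting genes, was at 39.8 and 28.0 against 71.9 and 61.2 (0.73), and Crtc2, the cAMP-responsive coactivator, at 25.4 and 12.7 against 60.8 and 32.0 (0.82). The other Crtc2 probe set gave -1.08. Pck1, which commits oxaloacetate to glucose, was at 2178.6 and 1362.8 in WT and at 2497.8 and 4139.5 in Dscr-1 null livers (0.89, 95% confidence interval -0.08 to 1.87). Its 2 dimmer probe sets gave 0.67 and -0.98. G6pc, the last enzyme of the path, overlapped between the groups, at 2074.5 and 1063.9 against 1470.6 and 2555.7. Fbp1, which hydrolyses fructose bisphosphate, was lower on both arrays, at 7555.1 and 7666.0 against 5351.7 and 6897.8 (-0.32). Tat, a glucocorticoid-responsive aminotransferase, was at 3463.6 and 1624.4 against 2425.5 and 6206.5, and the glycolytic enzyme Pfkl at 307.5 and 595.1 against 178.8 and 333.5 (-0.77, with -0.41 and 0.75 by 2 other probe sets). The list depended on single mice. Its median was 0.34 without WT replicate 1, -0.04 without WT replicate 2, 0.19 without Dscr-1 null replicate 1 and -0.02 without Dscr-1 null replicate 2.

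The Pck1 promoter is shown because it carries the best known cAMP element of this pathway. In the window (chr2:173152823-173153122, GRCm38.p6, plus strand) the half-site TGACG, read on either strand, is in capitals.
Pck1: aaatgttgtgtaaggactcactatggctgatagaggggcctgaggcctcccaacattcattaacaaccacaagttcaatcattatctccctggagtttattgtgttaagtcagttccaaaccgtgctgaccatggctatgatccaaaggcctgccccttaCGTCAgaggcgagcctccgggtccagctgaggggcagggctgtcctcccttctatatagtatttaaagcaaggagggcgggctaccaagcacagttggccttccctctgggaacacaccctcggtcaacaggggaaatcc
Its half-site began at position -90 from the start site. Of 26 windows of measured gluconeogenesis genes 7 held a half-site, against 27.7% of the windows of all tested genes. None held the full palindrome TGACGTCA (0 of 26), which contains that half-site and was found in 2.61% of all.

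Among 30 genes of the insulin response 15 were higher and the median was -0.01. Lpin1, a phosphatidate phosphatase and coactivator induced by fasting, was at 1060.5 and 436.8 in WT and at 1651.0 and 1842.7 in Dscr-1 null livers (log2 difference 1.33, 95% confidence interval 0.24 to 2.43). A second Lpin1 probe set gave 575.3 and 330.6 against 1202.7 and 1226.4 (1.44), so both separated the groups. Sesn3, a Foxo1 target, was at 209.7 and 155.0 against 262.6 and 312.2 (0.62). The classical Foxo1 targets Irs2 and Igfbp1 overlapped between the groups. Igfbp1 was at 415.6 and 460.4 in WT and at 330.0 and 1491.0 in Dscr-1 null livers, and Irs2 at 43.1 and 35.4 against 41.6 and 19.4. Enho, which encodes adropin, was at 107.0 and 286.8 against 4.8 and 93.1 (-2.02, with -0.85 and 0.36 by 2 other probe sets). Fasting genes under PPAR-alpha split in direction. Ppara itself was at 1084.3 and 601.9 in WT and at 1605.4 and 1635.3 in Dscr-1 null livers (0.99), and Angptl4, an inhibitor of lipoprotein lipase, at 404.6 and 357.4 against 870.3 and 737.0 (1.04). Fgf21, a fasting hormone, was at 82.3 and 55.4 against 5.5 and 10.1 (-1.82). Cyp4a14, a fatty acid hydroxylase, was at 144.0 and 2380.8 against 79.5 and 119.8 (-2.44, 95% confidence interval -4.98 to 0.09), with a wide spread within WT. Ehhadh, of peroxisomal oxidation, was at 3260.7 and 2869.5 against 1730.7 and 2227.0 (-0.64). Over 27 genes of fatty acid oxidation and PPAR-alpha action 14 were higher and the median was 0.04.

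**Figure D3:**
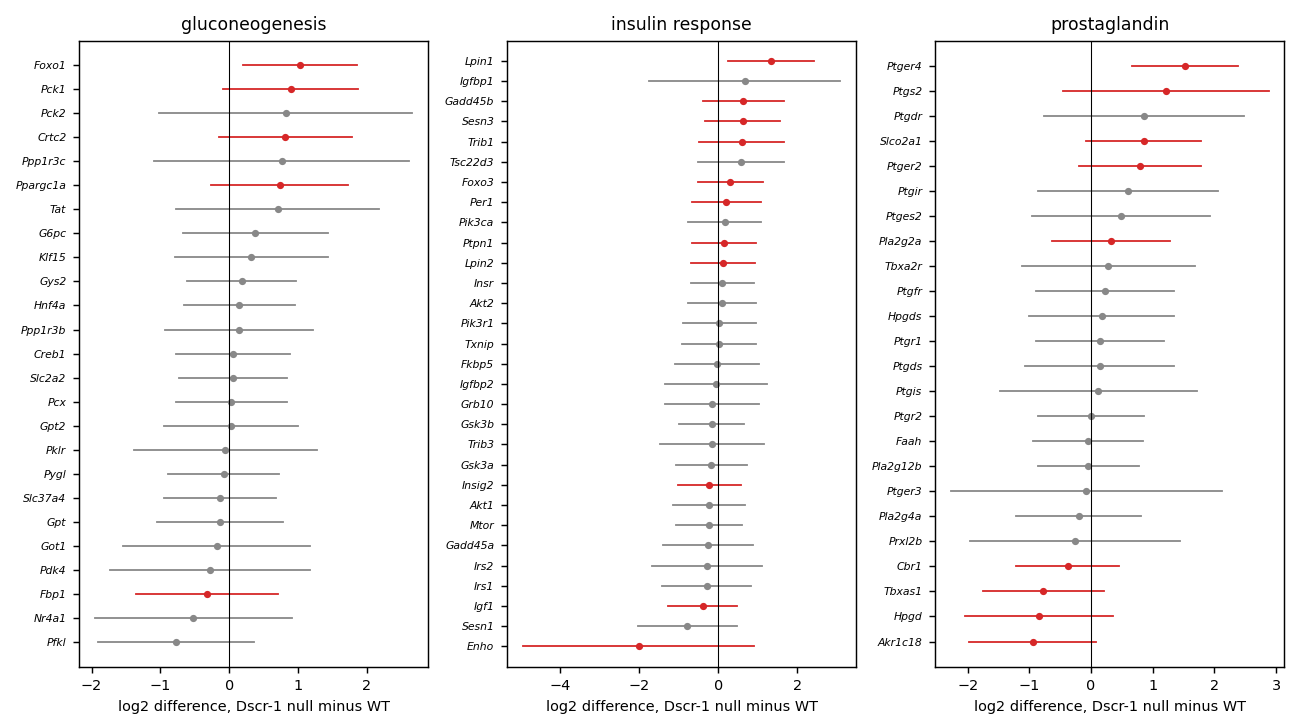
Dscr-1 null minus WT liver as a log2 difference for each measured gene of 3 lists, with limma's 95% confidence interval, and in red the genes whose 2 Dscr-1 null arrays did not overlap the 2 WT arrays. Foxo1, Lpin1 and Ptger4 head the lists at 1.03, 1.33 and 1.52, and the intervals of all other genes cross 0.

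Of 24 measured prostaglandin genes 14 were higher (48.8% of all genes were), both arrays were above both WT arrays for 5 (16.3% of all genes) and below for 4 (16.9%), and the median was 0.14. None passed the adjusted threshold, and Ptger4 had the largest difference. Ptger4, the EP4 receptor that raises cAMP on binding prostaglandin E2, was at 3.1 and 5.6 in WT and at 43.7 and 41.2 in Dscr-1 null livers (log2 difference 1.52, 95% confidence interval 0.66 to 2.39, adjusted p = 0.885 from limma). The 2 WT signals lay below the 6 other liver arrays and below the array medians. A second Ptger4 probe set, too dim to be tested, lay the other way at 8.9 and 32.8 in WT against 2.0 and 2.1 in Dscr-1 null livers. Over the alternatives the log2 difference of Ptger4 ran from 0.64 to 3.06. Ptger2, the EP2 receptor, was at 19.0 and 55.4 against 69.0 and 72.2 (0.79). Slco2a1, the prostaglandin transporter, was at 120.3 and 135.3 against 287.3 and 205.6 (0.85), with -0.02 to 1.26 by 3 other probe sets. Enzymes did not share a direction. Ptgs2, the inducible cyclooxygenase, was at 32.3 and 1.4 against 60.8 and 42.5 (1.21). Hpgd, which inactivates prostaglandins, was at 1453.8 and 621.7 against 514.0 and 537.2 (-0.84). Tbxas1, the thromboxane synthase, was at 50.5 and 46.2 against 19.8 and 23.5 (-0.77), and Akr1c18, a hydroxysteroid dehydrogenase that also reduces prostaglandins, at 35.2 and 10.9 against 2.9 and 3.7 (-0.94). Of the lipoxygenases, Alox12e was at 48.8 and 44.1 against 13.9 and 14.1 (-1.06) and Alox5, the first enzyme of leukotriene synthesis, at 22.2 and 8.8 against 69.8 and 41.4 (1.19). The leukotriene and lipoxygenase list had 7 of 14 members higher and a median of 0.00. The median of the prostaglandin list moved to -0.04 when probe sets had to exceed a signal of 100.

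The Ptger4 window (chr15:5244138-5244437, GRCm38.p6, minus strand) and that of the internal Rcan1 start site (chr16:92400029-92400328, GRCm38.p6, minus strand) are shown with the NFAT core GGAAA, on either strand, in capitals, since NFAT is the factor that Dscr-1 restrains.
Ptger4: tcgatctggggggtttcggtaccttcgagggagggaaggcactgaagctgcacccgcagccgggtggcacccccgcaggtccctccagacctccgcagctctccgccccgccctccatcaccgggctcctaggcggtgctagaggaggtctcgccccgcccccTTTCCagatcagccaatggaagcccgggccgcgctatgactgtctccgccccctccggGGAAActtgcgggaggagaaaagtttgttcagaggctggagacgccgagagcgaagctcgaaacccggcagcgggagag
Rcan1, internal start: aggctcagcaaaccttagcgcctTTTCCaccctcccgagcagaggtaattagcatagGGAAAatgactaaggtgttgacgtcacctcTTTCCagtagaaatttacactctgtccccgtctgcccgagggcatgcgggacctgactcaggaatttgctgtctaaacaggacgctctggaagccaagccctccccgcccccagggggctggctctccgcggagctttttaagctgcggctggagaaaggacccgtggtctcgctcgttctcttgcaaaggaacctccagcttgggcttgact
Ptger4 held 2 cores and the internal Rcan1 window 3. The window of the upstream Rcan1 start site (chr16:92466120-92466419, not printed) held no core. The core is common. It occurred in 59% of the windows of all tested genes, in 61.8% of the 503 windows of genes over 2-fold higher, in 59.8% of the 502 windows of genes over 2-fold lower and in 15 of 24 windows of prostaglandin genes. No chance test was made on these shares.

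Endoplasmic reticulum (ER) stress genes differed at a few points and were level as a group. Of 37 members 21 were higher, both arrays were above both WT arrays for 9 (16.3% of all genes were) and below for 2 (16.9% of all genes), and the median was 0.02. Ppp1r15a (GADD34), which recruits a phosphatase to eIF2-alpha, was at 23.7 and 32.3 in WT and at 79.2 and 95.2 in Dscr-1 null livers (log2 difference 1.23, 95% confidence interval 0.43 to 2.03, adjusted p = 0.890 from limma). Ddit3 (CHOP), the death-promoting factor of the same branch, was at 68.5 and 56.6 against 132.2 and 170.5 (1.09, 95% confidence interval 0.07 to 2.10). For both genes the Dscr-1 null arrays exceeded all 6 other liver arrays. Livers lacking ApoE had 67.4 to 75.3 for Ppp1r15a, also above both WT arrays, and 52.2 to 112.0 for Ddit3. Asns, asparagine synthetase and likewise a target of Atf4, went the other way, at 77.7 and 175.8 against 30.8 and 41.5 (-1.37), below all 6 others. The ER lumen genes Creld2 and Hyou1 were at 171.6 and 233.6 against 300.3 and 602.9 (1.03) and at 320.7 and 435.2 against 642.9 and 735.9 (0.85). The main chaperone Hspa5 differed little, at 9536.9 and 10396.2 against 9835.4 and 11820.8 (0.11). The sensors and factors overlapped between the groups. Atf4 was at 634.6 and 456.7 against 571.8 and 473.9, Atf6 at 386.0 and 489.5 against 304.3 and 416.6, and Xbp1 at 2971.2 and 4186.2 against 3873.4 and 2660.3.

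The promoters of Ppp1r15a (chr7:45526219-45526518, GRCm38.p6, minus strand) and Creld2 (chr15:88819396-88819695, GRCm38.p6, plus strand) are printed to contrast the branches. Capitals mark the full cAMP palindrome TGACGTCA in the first and the ER stress element (CCAAT and CCACG with a fixed spacer, here on the opposite strand) in the second.
Ppp1r15a: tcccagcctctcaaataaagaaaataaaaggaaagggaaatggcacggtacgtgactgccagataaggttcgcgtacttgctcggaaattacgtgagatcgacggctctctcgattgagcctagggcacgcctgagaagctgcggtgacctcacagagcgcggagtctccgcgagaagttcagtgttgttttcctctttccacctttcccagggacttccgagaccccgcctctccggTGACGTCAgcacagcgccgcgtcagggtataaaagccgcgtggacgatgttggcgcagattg
Creld2: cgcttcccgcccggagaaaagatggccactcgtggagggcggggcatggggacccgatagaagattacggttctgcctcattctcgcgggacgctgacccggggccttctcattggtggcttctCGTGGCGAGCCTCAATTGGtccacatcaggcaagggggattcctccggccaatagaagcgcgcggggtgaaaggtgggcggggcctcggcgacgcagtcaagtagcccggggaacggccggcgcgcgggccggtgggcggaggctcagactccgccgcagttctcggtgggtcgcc
The ER stress element was present in 9 of 33 windows of the ER stress list and in 0.113% of the windows of all tested genes. The 9 genes with it had log2 differences of -0.31 to 1.03, and only Creld2 exceeded 0.23. The amino acid response element TTGCATCA of Atf4 was found in 4 of those 33 windows and in 0.668% of all.

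Oxidative stress genes leaned lower. Of 43 members 28 were lower in Dscr-1 null livers, both arrays were below both WT arrays for 14 (16.9% of all genes were) and above for 5 (16.3% of all genes), and the median was -0.17. At an unadjusted p under 0.05 by limma there were 0 of 43, against 3.84% of all genes. Nfe2l2, which encodes NRF2, was at 741.8 and 592.7 in WT and at 486.0 and 583.4 in Dscr-1 null livers (log2 difference -0.31). Gclm, of glutathione synthesis, was at 2372.5 and 2368.1 against 2105.6 and 1945.5 (-0.23), and Txnrd1, thioredoxin reductase, at 442.2 and 524.5 against 363.9 and 413.1 (-0.30). Gsta4, which conjugates lipid aldehydes such as 4-hydroxynonenal to glutathione, was at 741.9 and 637.7 against 544.0 and 257.9 (-0.85). Gstm3 was at 448.9 and 860.0 against 430.3 and 191.1 (-1.07) and Me1, which supplies NADPH, at 1602.9 and 2450.3 against 1281.3 and 1404.6 (-0.56). Gpx3, a secreted glutathione peroxidase, was at 110.6 and 126.8 against 55.4 and 67.0 (-0.80) and lay below all 6 other liver arrays. For Nfe2l2, Gsta4 and Me1, by the brightest probe set, both WT arrays instead lay above all 6 other liver arrays. Prdx3, the mitochondrial peroxiredoxin, had -0.42, Gsta3 had -0.38 and Slc7a11, the cystine transporter, -0.67. Osgin1 overlapped, at 433.4 and 1607.5 against 644.0 and 197.2. Higher on both arrays were Sod1, at 7521.9 and 7744.8 against 10536.0 and 8718.8 (0.33), and Hmox1, heme oxygenase, at 87.9 and 68.7 against 111.0 and 88.4 (0.30). The list median stayed between -0.18 and -0.08 under the 17 alternatives.

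**Figure D4:**
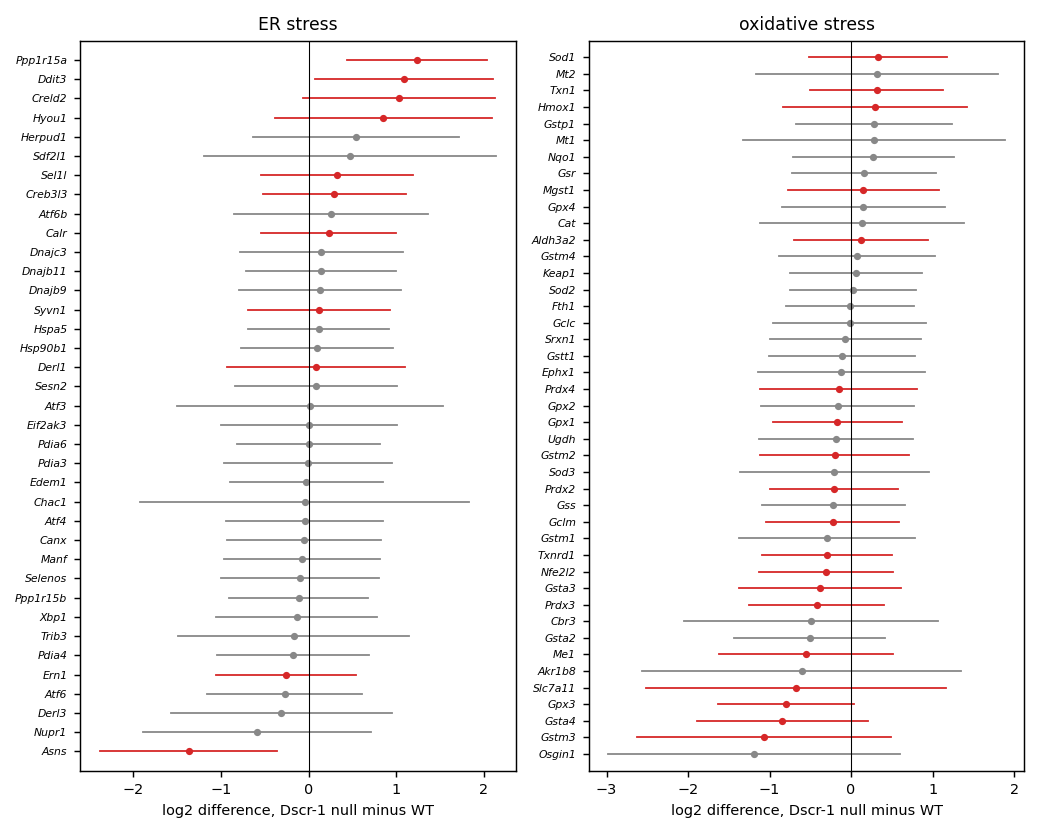
Dscr-1 null minus WT liver as a log2 difference with limma's 95% confidence interval for 37 ER stress and 43 oxidative stress genes, in red where the 2 groups of arrays did not overlap. Ppp1r15a and Ddit3 lie at the top of the first panel and Asns at the bottom, and the second panel holds 28 genes below 0.

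Other stress lists gave smaller counts. Heat shock genes were higher for 14 of 19 (median 0.20), and the median ran from -0.05 without WT replicate 2 to 0.54 without WT replicate 1. Hspa1b, the inducible HSP70, was at 798.8 and 222.3 in WT and at 819.9 and 866.0 in Dscr-1 null livers, and its cochaperone Dnajb1 at 418.5 and 201.7 against 510.7 and 465.1. Of 24 genes of p53 and growth arrest 15 were higher (median 0.08). Aen, an apoptotic nuclease, was at 37.5 and 27.8 against 103.3 and 69.2 (1.06, with -0.92 to 0.68 by 3 other probe sets). Plk2, a kinase induced by p53, was at 6.0 and 44.4 against 85.0 and 72.3 (1.37), while a dim untested probe set was at 35.2 and 9.2 against 4.0 and 4.4. Gadd45g was at 13 in both WT livers and at 46.3 and 222.3 in Dscr-1 null livers, and Mdm2, which degrades p53, at 106.9 and 97.8 against 139.7 and 170.1 (0.53). Apoptosis genes were higher for 16 of 26 (median 0.15), with the inflammatory caspase Casp1 at 6.9 and 10.5 against 66.8 and 17.2 and the caspase inhibitor Cflar at 206.8 and 220.6 against 346.4 and 292.5 (0.54).

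The calcineurin and NFAT genes were level as a group, with 15 of 26 higher and a median of 0.03. The catalytic subunits Ppp3ca and Ppp3cb and the regulatory subunit Ppp3r1 had log2 differences of -0.19, -0.29 and -0.52, and the direction of the first 2 turned when all probe sets of a gene were averaged. Nfatc1, Nfatc2 and Nfatc3 lay within 0.03 of 0, and Nfatc4 was at 0.53 (95% confidence interval -0.63 to 1.69). Other probe sets of Nfatc1 gave -0.26 to 1.64, those of Nfatc2 -1.11 to 0.47 and those of Nfatc4 -0.85 to 1.23. Of the calcineurin partners, Cabin1, an inhibitor, was at 35.9 and 4.6 in WT and at 94.1 and 32.6 in Dscr-1 null livers. Myoz1, a calcineurin-binding protein of muscle, was at 104.6 and 112.2 against 55.1 and 14.9 (-1.41, adjusted p = 0.902 from limma), and Mef2c, a factor that calcineurin activates, at 91.4 and 49.0 against 42.1 and 29.5. The paralog Rcan2 was at 86.9 and 80.2 against 60.9 and 52.8 (-0.45). Sterol genes were divided evenly. Srebf2, the regulator of cholesterol synthesis, was at 93.7 and 149.0 against 69.6 and 106.5 (-0.39), and 11 of 22 synthesis genes were higher (median 0.02). Within the pathway Pmvk was at 37.0 and 29.5 against 70.6 and 86.4 (0.94) and Idi1 at 156.6 and 142.2 against 226.4 and 240.3 (0.59), while Fdft1 was at 559.2 and 543.4 against 391.1 and 297.5 (-0.67) and Sqle at 49.8 and 37.3 against 4.8 and 32.1 (-0.90).

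Inflammatory mediators were divided evenly too, with 17 of 34 higher (median 0.02), although single genes separated. Il1r1, the interleukin 1 receptor, was at 135.4 and 98.6 in WT and at 311.5 and 385.1 in Dscr-1 null livers (log2 difference 1.46), while a dim untested probe set was at 30.9 and 26.4 against 2.8 and 8.3. Cxcl2, a neutrophil chemokine, was at 4.9 and 22.7 against 58.4 and 52.6 (1.33), and Nfkb2 at 4.2 and 16.6 against 76.1 and 47.1 (1.57). Icam1, an adhesion molecule for leukocytes, was lower at 62.5 and 87.0 against 41.9 and 11 (-1.19). Interferon genes were higher for 16 of 32 (median 0.00). Besides Trim34a, Oas2 was at 21.7 and 50.5 against 136.7 and 120.1 (1.53) and Trim30a at 96.4 and 58.3 against 259.8 and 180.4 (1.35, with -0.54 by another probe set), whereas Ifit2 was at 70.9 and 61.1 against 13.4 and 25.4 (-1.23). Irf1 overlapped between the groups, at 145.7 and 196.6 against 146.7 and 179.6. Lcn2, an iron-binding lipocalin, was at 6.5 and 53.8 against 66.9 and 228.5 (1.84) and Orm3, an acute phase protein, at 67.2 and 72.8 against 13.2 and 10.1 (-1.64). The transferrin receptor Tfrc was at 501.9 and 581.1 against 273.1 and 295.3 (-0.89), below all 6 other liver arrays, with -0.90 and 0.42 by 2 other probe sets. Egr2, a target of NFAT in lymphocytes, was at 2.1 and 4.4 against 38.2 and 40.9 (1.53), and Nr4a3, an orphan nuclear receptor, at 45.4 and 34.8 against 8.9 and 12.7 (-1.06).

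In whole liver, more cells of a type and more RNA per cell cannot be told apart. Macrophage markers summed to 7990.4 and 10168.5 in WT and to 10000.7 and 8335.4 in Dscr-1 null livers, with 11 of 26 higher (median -0.09, and 0.083 without WT replicate 2). No Itgam probe set exceeded the filter. Marco, a scavenger receptor of Kupffer cells, was at 64.1 and 4.8 against 97.1 and 83.1 (1.38). Neutrophil markers were higher for 9 of 11 (median 0.47), with sums of 289.3 and 407.6 against 524.1 and 641.5, yet 2 well known markers lay on opposite sides. Ltf was at 3.8 and 40.0 against 47.3 and 70.2, while S100a9 was at 45.7 and 33.6 against 9.4 and 7.5 (-1.18). Stellate cell and fibroblast markers were lower for 16 of 21 (median -0.26), and the median was 0.011 without WT replicate 1 and -0.55 without WT replicate 2. Their sums were 7499.1 and 5439.0 in WT and 5374.2 and 4889.9 in Dscr-1 null livers. Rgs5 was at 441.4 and 608.2 against 345.4 and 370.9 (-0.51), Pdgfrb at 90.7 and 64.1 against 51.9 and 39.4 (-0.59) and Pdgfra at 124.6 and 78.9 against 55.5 and 32.5 (-0.97). The part of cell composition in the gene differences above was not tested. Hepatocyte markers were higher for 14 of 20 (median 0.14). Proliferation genes were lower for 15 of 25 (median -0.10), although Mcm6, of the replicative helicase, was at 26.5 and 23.9 against 92.9 and 76.1 (1.28) and the spindle motor Kif11 at 5.0 and 13.8 against 52.2 and 22.6 (1.04).

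Clock and sex-biased genes bear on the time of sampling and on sex, which the labels do not give. Of 19 clock genes 12 were higher (48.8% of all genes were, median 0.28), and both arrays were above both WT arrays for 8 (16.3% of all genes) and below for 3 (16.9%). The median was 0.12 without WT replicate 2. Ciart, a repressor of the clock, was at 48.6 and 65.5 in WT and at 102.9 and 127.6 in Dscr-1 null livers (0.85), and Usp2, a rhythmic deubiquitinase, at 507.9 and 532.0 against 711.2 and 932.6 (0.63). Bhlhe40 was lower at 733.7 and 780.9 against 527.2 and 539.7 (-0.49). The Y-linked gene Eif2s3y was detected on all 8 liver arrays, at 197.2 to 409.3. Of 11 male-biased liver genes 9 were higher (median 0.40), and the median was -0.14 without WT replicate 1 and 0.87 without WT replicate 2. Ugt2b38, a glucuronosyltransferase, was at 90.3 and 132.0 against 451.4 and 431.9 (1.87), Hsd3b5, a steroid dehydrogenase, at 3773.3 and 3292.8 against 6819.5 and 5863.5 (0.84), and Cyp4a12a at 1167.0 and 2636.5 against 4737.7 and 2247.3. The female-biased list had 4 of 8 higher (median -0.39, and -0.13 without Dscr-1 null replicate 1). Besides Acot3, Abcd2, a peroxisomal transporter, was at 60.5 and 46.0 against 15.2 and 2.6 (-1.52), with 1.47 by another probe set, and Cyp17a1 at 237.3 and 151.5 against 8.4 and 123.2 (-1.82). Of the drug-metabolizing enzymes, Cyp2c55 was at 96.1 and 119.6 against 36.0 and 60.2 (-0.97).

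The loss of Dscr-1 can be read a second time, in mice that also lack ApoE, on 4 other arrays. These enter no mean of the first comparison, but all 8 arrays share the estimate of spread behind its p-values. In double null against ApoE null livers 0 of 14855 genes passed by limma, with 791 at an unadjusted p under 0.05 (5.32%), and 0 passed for the difference between both comparisons, with 653 (4.4%). Of the 513 genes over 2-fold higher in Dscr-1 null livers, 240 were higher in double null than in ApoE null livers (46.8%, where 50.3% of all genes were). Of the 509 over 2-fold lower, 280 were also lower (55.0%, against 49.7% of all genes). Among genes of mean signal over 100 the shares were 46 of 75 (61.3%, against 53.3%) and 23 of 44 (52.3%, against 46.7%). Without overlap in the same direction, at any size, were 89 of the 513 (17.3%, against 16.6% of all genes) and 103 of the 509 (20.2%, against 15.7%). Among genes of mean signal over 100 these were 18 of 75 (24.0%, against 17.8%) and 11 of 44 (25.0%, against 15.1%). Most of the 513 and 509 genes were dim, and the shares of all genes are not matched to their signal. Over 2-fold without overlap in the second pair as well were 43 of the 513 (8.38%, against 4.49% of all genes) and 52 of the 509 (10.2%, against 4.13%). Of the genes of mean signal over 100, 2 of 75 (2.67%, against 0.875% of all such genes) and 2 of 44 (4.55%, against 0.543%) did so.

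These 4 genes were Eif4e3, Sfpq, Cyp4a14 and Acot3. Eif4e3, a cap-binding protein, was at 114.7 and 83.4 in WT, and 234.2 and 200.7 in Dscr-1 null livers, with ApoE null livers at 125.8 and 88.6 and double null livers at 298.3 and 284.7. Both groups labelled as lacking Dscr-1 thus lay above both others. Sfpq, a splicing factor, had log2 differences of 1.21 and 1.07, with -0.43 to 0.57 by 5 other probe sets in the first pair. Cyp4a14 had -2.44 and -2.94, the second pair being at 280.1 and 538.0 against 55.6 and 22.7, and Acot3 had -1.83 and -1.30. Among dimmer genes, Zfp169, Cxcl2 and Fgf21 had the same order on all arrays. Zfp169, a zinc finger gene, was at 5.1 and 4.2 in WT, and 64.8 and 65.1 in Dscr-1 null livers, with ApoE null livers at 6.2 and 2.7 and double null livers at 44.1 and 44.4. Cxcl2 had log2 differences of 1.33 and 1.38 and Fgf21 of -1.82 and -1.18. Genes with large differences from WT had mostly small ones in the second pair. Fam25c had 0.70, the double null livers (1939.0 and 2530.1) lying just above the ApoE null livers (958.2 and 1913.3), a narrow separation in the same direction. Ang differed by 0.33, also without overlap, Rpgrip1 by 0.31, A2ml1 by 0.31, Trim34a by 0.03, Ctse by 0.68 and Foxo1 by 0.16. Pck1 had -0.05, Ppp1r15a 0.02 and Ddit3 0.17, while Lpin1 had 0.99 and G6pc 1.24, the latter at 984.0 and 1100.4 against 2513.9 and 2429.8.

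**Figure D5:**
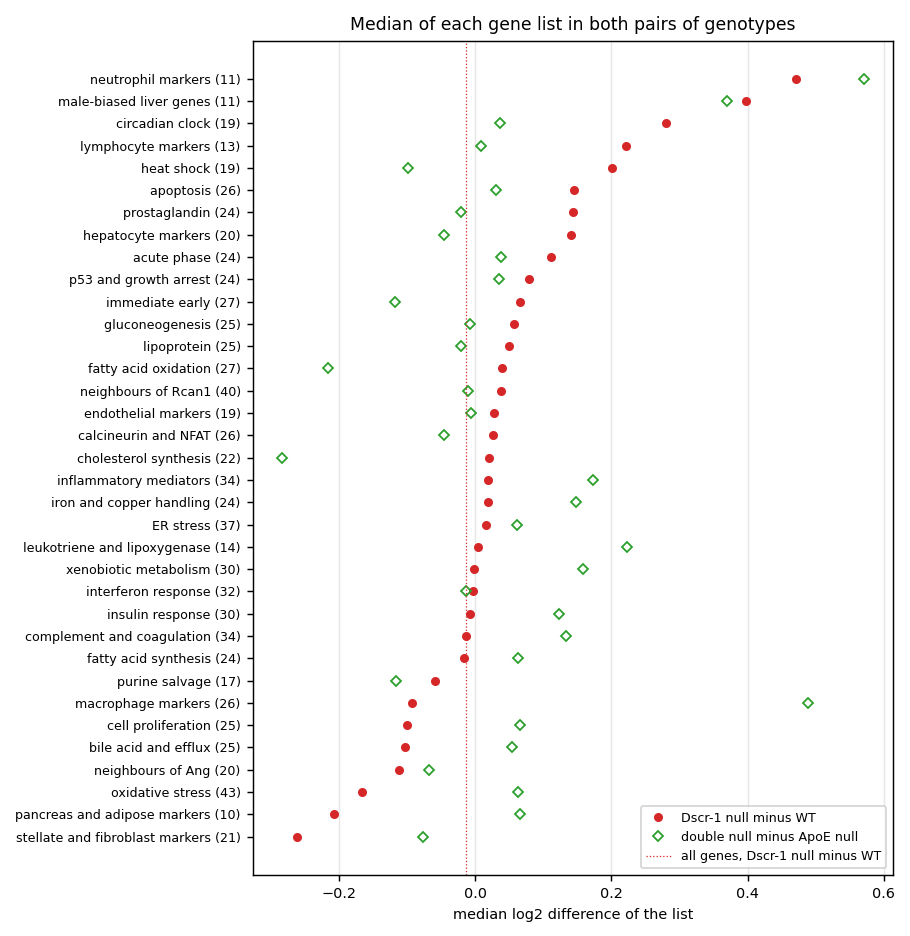
Median log2 difference of each gene list with at least 10 measured genes (number in brackets), as red dots for Dscr-1 null minus WT and as green diamonds for double null minus ApoE null, with a dotted line at the median of all genes in the first comparison. The oxidative stress list is at -0.17 in the first comparison and at 0.06 in the second, and gluconeogenesis at 0.06 and -0.01.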

How the data were processed

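Liver RNA was hybridized to Affymetrix Mouse Genome 430 2.0 arrays, 1 mouse per array. The authors obtained MAS5 signals with the GeneChip Operating Software and set the average of each array to 100, and the deposited liver values are linear intensity values of this kind. The deposited aortic values, which are log2, were not compared. Of 45037 probe sets, 34945 belong to 1 gene in the platform annotation. A probe set was tested if it exceeded the array median on at least 2 liver arrays (32005 probe sets, 14855 genes), and a gene was read from its brightest one. The model (lmFit and eBayes of limma 3.58.1, R 4.3.3) took log2(signal + 16) of 8 arrays with 1 mean per genotype. Adjusted p-values are Benjamini-Hochberg values over 32005 probe sets. A difference over 2-fold is over 1 on this log2 scale, which understates changes of dim genes. The fit was tested on simulated data.

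Groups follow the titles. Members and gene lists (943 genes) were chosen with earlier results of these data known, and lists are described by counts and medians. Genes were named by rule: genes the study ties to Dscr-1 in liver, up to 6 of lowest p per list, members whose role is described, the 10 higher and 10 lower with the largest gap and those of lowest p. Eif4e3, Sfpq, Zfp169 and the genes compared across both pairs of genotypes were chosen after their values were seen. Promoter windows are from RefSeq (GRCm38.p6). The table held 32817 windows. The arrays name no genome build, so gene order alone was taken from the gene table. Some genes are not analysed here. Alternatives are listed in the closing section, and the number of arrays limits the precision.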

Additional observations from a re-analysis of the deposited data

Results flagged for a closer look

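For 17 genes named above, both Dscr-1 null arrays lay on one side of the WT arrays and both double null arrays on the opposite side of the ApoE null arrays. The test of the difference between the pairs passed for 0 of them over all genes by limma, so opposite signs are values, not a shown difference. Of all genes, 16.3% lay above and 16.9% below without overlap in the first pair, and 16.6% and 15.7% in the second. The share of all genes with opposite separations was not counted. Some of the named genes were also picked for a large gap in the first pair. Log2 differences are given with Dscr-1 null minus WT first and double null minus ApoE null second. Ptger4, the EP4 receptor, had 1.52 and -0.92. Akr1c18, a prostaglandin-reducing dehydrogenase, had -0.94 and 1.54. Gclm, of glutathione synthesis, had -0.23 and 0.29. Gpx3, a glutathione peroxidase, had -0.80 and 0.40. Txnrd1, thioredoxin reductase, had -0.30 and 0.14. Aen, an apoptotic nuclease, had 1.06 and -0.75. Mdm2, the ligase for p53, had 0.53 and -0.98. Cflar, a caspase inhibitor, had 0.54 and -0.69. Icam1, an adhesion molecule, had -1.19 and 0.57. S100a9, a neutrophil protein, had -1.18 and 1.12. Clec2d, a natural killer cell ligand, had -1.66 and 0.55. Sesn3, a Foxo1 target, had 0.62 and -0.62. Rnase4, the ribonuclease beside Ang, had -0.38 and 0.27. Shh, a hedgehog ligand, had -1.56 and 0.34. Cyp2c55, a drug-metabolizing enzyme, had -0.97 and 0.77. Eif2s3y, a Y-linked gene, had -0.52 and 0.61. Hprt, of purine salvage, had 1.97 and -0.12.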

How the results depend on the processing

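Of 140 genes named, 121 kept the direction of their log2 difference under all 17 alternatives, and 10 turned only without 1 array. Adding 1 to the signal left 0 genes called, with 950 over 2-fold higher and 937 lower, and a prostaglandin median of 0.22. Adding 64 gave 5 calls (Ang, Ctse, Fam25c, Rpgrip1 and A2ml1), 35 higher and 21 lower, 2 calls for the difference between both pairs of genotypes (Ang and Ctse), and 0.00074 for Nfatc1, a turned sign. A signal over 100 on 2 arrays gave 2 calls (Ang and Trim34a), 98 higher and 51 lower, 1 call for the difference between pairs (Ang) and a prostaglandin median of -0.044. The 4 arrays alone and the mean of a gene's probe sets each left 0 calls, and the methods' test on the 4 arrays gave 0 after Benjamini-Hochberg adjustment and 808 before it. Quantile normalization, scaling by the median and no filter each kept 1 call. Averaging probe sets turned Rcan1 (-0.15), Crtc2 (-0.13), Atf4 (0.14), Ppp3ca (0.055), Ppp3cb (0.12), Nfatc1 (0.34), Nfatc2 (-0.36), Mef2c (0.0023) and Eif2s3y (0.45). Apart from these constructions (fewer arrays, fewer or merged probe sets) the cause was not tested.

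Each of the 8 liver arrays was left out in turn (ApoE null replicate 2 and both double null arrays were added after seeing the data). Then 0 to 1 genes were called, 513 to 1033 were over 2-fold higher and 509 to 1032 lower, since a lone array cannot overlap itself. List medians ran from -0.037 to 0.34 for gluconeogenesis, from -0.076 to 0.11 for the insulin response and from -0.019 to 0.24 for prostaglandin genes. Of 41 lists, 30 had a median that turned sign without at least 1 array. Log2 differences that turned did so as follows. Alb ran from -0.079 to 0.34, Apoe ran from -0.0048 to 0.10, Atf4 ran from -0.28 to 0.18, G6pc ran from -0.096 to 0.86 and Hspa5 ran from -0.018 to 0.25. Igfbp1 ran from -0.39 to 1.73, Irf1 ran from -0.25 to 0.14, Irs2 ran from -0.64 to 0.064, Nfatc1 ran from -0.28 to 0.27 and Nfatc2 ran from -0.40 to 0.45. Nfatc3 ran from -0.22 to 0.27, Nfatc4 ran from -0.037 to 1.09 and Xbp1 ran from -0.40 to 0.13.

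With the replicate number as a block, 1 gene (Ang) was called, as without it. Deviations of same-numbered arrays correlated at 0.00052 to 0.0322 across the genes tested, so no shift shared by same-numbered arrays was seen. Whether the numbers pair mice cannot be told from these correlations. With 2 mice per genotype the number of arrays limits every value, and dim genes lie near background.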

Other observations

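Further gene groups of liver were described by the same counts. Genes of bile acid synthesis and efflux were lower in Dscr-1 null livers for 18 of 25 (median log2 difference -0.10), with both arrays below both WT arrays for 4 (16.9% of all genes were) and above for 2 (16.3% of all genes), and the median was 0.016 without Dscr-1 null replicate 1. Lipoprotein genes were higher for 15 of 25 (median 0.05), with both arrays above for 9 (16.3% of all genes were) and below for 4 (16.9% of all genes), and the median ran from 0.014 without WT replicate 1 to 0.13 without WT replicate 2. Complement and coagulation genes were higher for 15 of 34 (median -0.01) and genes of iron and copper handling for 13 of 24 (median 0.02). Fatty acid synthesis genes were higher for 11 of 24 (median -0.02), drug-metabolizing genes for 14 of 30 and immediate early genes for 16 of 27 (median 0.07). In none of these lists did a gene pass the adjusted threshold of limma.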
